A study of Drosophila melanogaster with 8 samples.

Results

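The NK homeobox cluster of Drosophila melanogaster lies on the right arm of chromosome 3 (3R) and holds the genes tin, bap, lbl, lbe, C15 and slou. It was taken here as the stretch of 3R from 17190050 to 17400049 (dm3), 210 kb long and covered by 210 windows of 1 kb, of 126378 windows in all and 27131 on 3R. The stretch was chosen by its position and with its H3K27me3 scores in both profiles already known, so its height and the gap between the mutants are given as descriptions and were not tested. H3K27me3, the trimethylated lysine of histone H3 that marks Polycomb-repressed chromatin, had been measured by ChIP-seq beside input chromatin in adult testes. The flies were kept at 23 °C, and the testes came from males 3 days old that were homozygous mutants of either can or comr. Each genotype had 2 H3K27me3 libraries and 2 inputs (8 samples in 4 groups), and 400 testes served as starting material. The alleles are not named in the labels, and no wild-type profile was analysed here, so every score comes from one mutant or the other.

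The values are the authors' deposited scores, 1 profile per genotype, in which H3K27me3 was divided by input in bins of 1000 bp and then put through a step the file headers abbreviate QN. The scores take both signs on a scale of unstated base, so differences are reported and no folds. Both profiles hold the same set of values once sorted, so a change in the total mark between the mutants cannot be read from them. Over the 26921 windows of 3R outside the cluster, scores averaged 0.03 in each mutant, and the SD over windows was 0.51 (can) and 0.53 (comr). The 2 replicates cannot be separated and the depth behind a score is unknown. Standard errors (SE) below are over 1 kb windows unless stated otherwise, and they describe scatter along the sequence within 1 profile, not the spread between animals. Whole testes mix cell types, so a larger share of cells with the mark and more mark per cell cannot be told apart.

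Polycomb repressive complex 2 places H3K27me3 over genes that are kept silent, and in flies its broadest domains cover clusters of developmental transcription factors. The NK genes are such a cluster: they encode homeodomain proteins that stand next to each other on the chromosome and act mostly in the mesoderm of the embryo. tin (tinman, also NK4) specifies the heart and dorsal mesoderm, and bap (bagpipe, NK3) acts after it in the visceral mesoderm that forms gut muscle. lbl and lbe (ladybird late and ladybird early) are neighbouring homologues that set the identity of particular heart cells and body wall muscles. C15 (clawless) patterns the tip of the leg, and slou (slouch, NK1 or S59) sets the identity of a subset of muscle founder cells. The mutated genes act in the male germline, where they switch on genes needed for meiosis and sperm formation. can (cannonball) encodes a testis TBP-associated factor and comr (cookie monster) a subunit of the testis meiotic arrest complex.

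All 6 genes were found in a RefSeq gene table of the Release 6 assembly, which was used only for names and order, since its coordinates are not those of dm3. Read along 3R, the order there is tin, bap, lbl, lbe, C15 and slou. Another 6 protein-coding genes lie among them: Ugt49B2, CG7907, CheB93a and CheB93b between bap and lbl, Fancm between lbe and C15, and sp3 between C15 and slou. Fancm encodes a DNA repair helicase, so the cluster is not made of homeobox genes alone. The nearest protein-coding neighbours are mod(mdg4), a chromatin and insulator protein gene, before tin, and CG15498 and the insulin receptor gene InR after slou. The label could be checked against dm3 only in part, and only on the side of tin. There the table carries intervals of Release 5, the assembly of dm3, as synonyms of mod(mdg4) and of aus. The mod(mdg4) interval ends 12.9 kb before the first window of the cluster, and the aus interval lies farther out. The gene bodies themselves could not be placed on the windows, so scores are given by position within the cluster and not per gene.

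H3K27me3 was higher over the cluster than on the rest of 3R in both mutants, and by more in comr than in can. It was near or below the 3R average in most bins on either side. The spread within the cluster was similar in both, with an SD over windows of 0.51 in can and 0.49 in comr. The bin mean exceeded the 90th percentile of 10 kb bins on the rest of 3R (0.34 in can and 0.42 in comr) in 14 of 21 bins in can and in 17 in comr. The cluster averaged 0.42 ± 0.03 in can and 0.58 ± 0.03 in comr (mean ± SE, 210 windows). Taken over its 21 bins of 10 kb, which allow only in part for neighbouring windows being alike, the standard errors were 0.05 in both. Scores in can had a median of 0.45, a lowest value of -1.01 and a highest of 2.14. Scores in comr had a median of 0.61, a lowest value of -0.68 and a highest of 1.81. The windows of the cluster and of the rest of 3R overlapped widely in each profile. The cluster stood 0.39 ± 0.04 above the rest of 3R in can and 0.55 ± 0.03 above it in comr. The median window of the cluster lay above 80.0% of the other 3R windows in can and above 86.8% in comr. Scores were above 0 in both mutants in 154 of the 210 windows (73.3%), against 32.6% of windows on the rest of 3R. Scores were below 0 in both in 12 windows (5.71%), against 27.3% elsewhere on 3R.

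**Figure D1:**
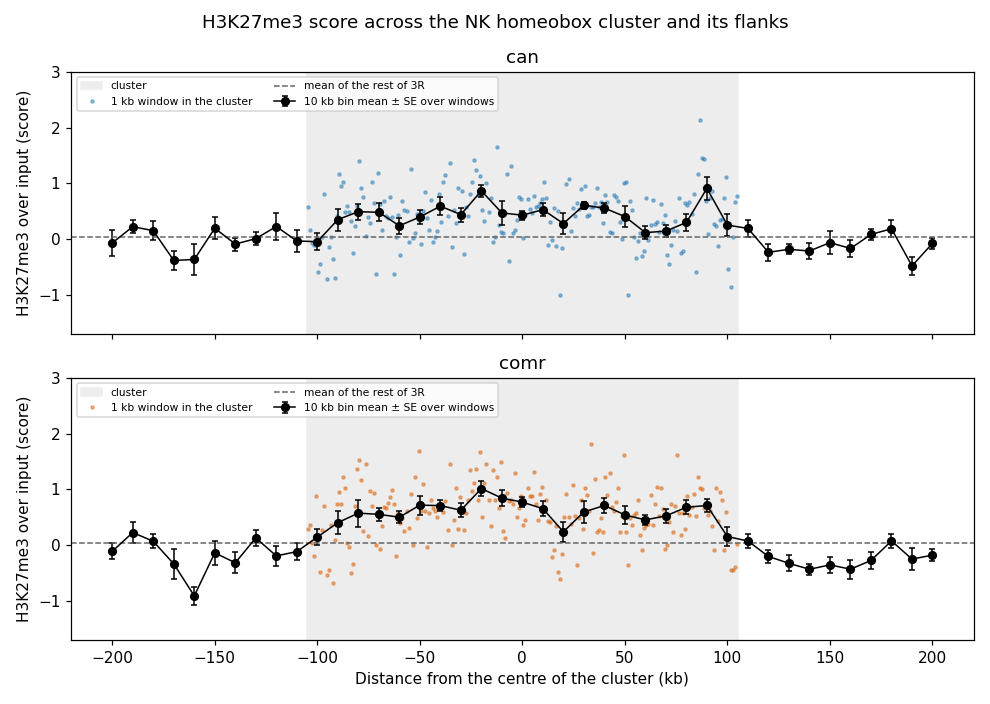
H3K27me3 over input (score) in can (top) and comr (bottom) against the distance in kb from the centre of the cluster, with 1 kb windows of the cluster as coloured dots, means of 10 kb bins ± SE over windows in black, the cluster shaded and the mean of the rest of 3R dashed. Bin means lie above the dashed line in 20 of 21 cluster bins in can and in all 21 in comr, and fall below it in most flanking bins.

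Windows were counted as enriched when they were among the top 10% of windows on X, 2L, 2R, 3L, 3R and 4, which set the threshold at 0.72 for can and 0.71 for comr. By that count 58 of 210 cluster windows (27.6%, 95% Wilson interval 22.0 to 34.0) were enriched in can, against a background of 8.45% on the rest of 3R. In comr 86 windows (41.0%, 34.5 to 47.7) were enriched, against 9.51%. These intervals cover counting error only, as if each window were independent. Both profiles were enriched at 37 windows (17.6%), against 2.11% on the rest of 3R. A further 21 windows were enriched in can alone (10%, against 6.34% on the rest of 3R) and 49 in comr alone (23.3%, against 7.4%). In neither profile were 103 windows enriched (49%, against 84.1%). About as many windows of the cluster thus failed the threshold in both profiles as passed it in at least 1. These counts reflect scores that were known when the region was chosen and carry no test.

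Joining enriched windows over gaps of at most 3 kb gave 5 domains of at least 5 kb in can and 8 in comr, all within the cluster. The can domains covered 84 kb of the 210 kb and the comr domains 127 kb, or 60.5%. On 3R as a whole, domains covered 6.09% of windows in can and 9.87% in comr. The longest in can ran from 17254050 to 17283049 (29 kb), the longest of the 215 can domains on 3R. The longest in comr ran from 17240050 to 17307049 (67 kb), the longest of 274. Elsewhere on 3R, no can domain was longer than 23 kb and no comr domain longer than 43 kb. The lengths depended on the settings. With no gaps joined the longest domains were 6 kb (can) and 7 kb (comr), and with gaps of at most 1 kb joined they were 6 kb and 17 kb. The longest domains were 8 kb (can) and 23 kb (comr) at the top 5% of windows, and 103 kb and 94 kb at the top 20%, where the order of the mutants turned. The comr domain held both of the longest can domains, of which the other ran from 17287050 to 17307049 (20 kb). In can these were parted by 4 windows with scores of 0.26, 0.13, 0.11 and 0.47, where comr scored 0.66, 1.49, 0.25 and 0.12. Of the 84 kb in can domains, 88.1% lay in comr domains, and the same 74 kb made up 58.3% of the comr domains. These shares are to be read against the cluster as a whole, where comr domains covered 60.5% and can domains 84 kb of the 210 kb. The overlap of domains elsewhere on 3R was not counted, so how unusual this overlap is was not tested.

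The mark was not level along the cluster. In both mutants a central plateau was followed by a dip, a second rise and a decline at the far edge, and in can a further, lower trough (0.12 and 0.14 in the bins from 17350050 and 17360050) parted the second rise from its highest bin. The bin from 17270050 to 17280049 was the highest by the mean of both profiles, with 0.86 ± 0.11 in can and 1.01 ± 0.13 in comr (10 windows). All 10 of its windows were above 0 in both profiles, with lowest values of 0.32 (can) and 0.34 (comr) and highest values of 1.42 and 1.67. The bin from 17380050 to 17390049, near the end where slou is the last NK gene, came next, with 0.91 ± 0.20 in can and 0.71 ± 0.12 in comr. It was the highest bin of the cluster in can. The third, from 17280050 to 17290049, adjoins the first and scored 0.47 ± 0.21 in can and 0.84 ± 0.14 in comr. Over the 7 bins from 17240050 to 17310049, bin means ranged from 0.40 to 0.86 for can, and for comr they ranged from 0.63 to 1.01.

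By the mean of both profiles, the lowest bins lay at the edges and at the dip. The first bin, from 17190050 to 17200049 and on the side of mod(mdg4), stood at -0.05 ± 0.15 (can) and 0.14 ± 0.15 (comr). The last, from 17390050 to 17400049, stood at 0.25 ± 0.20 (can) and 0.15 ± 0.17 (comr). The internal dip, from 17310050 to 17320049, stood at 0.28 ± 0.19 (can) and 0.24 ± 0.18 (comr). Its lowest windows were at -1.0 (can) and -0.61 (comr) and its highest at 1.08 in each profile, so the dip was uneven rather than a flat gap. Its 2 neighbouring bins scored 0.53 and 0.61 in can and 0.66 and 0.60 in comr. With standard errors near 0.2, the dip was set off from them by less than 2 of its own standard errors in can and by slightly more than 2 in comr.

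Single windows reached higher. In can the window from 17381050 to 17382049 reached 2.14, with only 11 windows of 3R above it, against 1.03 in comr. The next by the mean of both profiles, from 17215050 to 17216049 toward the tin end, had 1.40 (can) and 1.52 (comr). Those from 17282050, 17259050 and 17274050 scored 1.66, 1.36 and 1.13 in can and 1.23, 1.45 and 1.67 in comr. Each of these 5 windows was enriched in both mutants, which their choice by the mean of both profiles made likely. The scatter of single windows of the cluster, estimated from the differences between neighbours, had an SD of 0.45 (can) and 0.42 (comr). Single windows are therefore ranked loosely.

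The scores fell off at both ends of the cluster. The 100 kb before it averaged 0.02 ± 0.06 in can and -0.12 ± 0.06 in comr (91 windows). The 100 kb after it averaged -0.09 ± 0.05 in can and -0.23 ± 0.05 in comr (98 windows). Among the 10 bins before the cluster, 5 had a mean above 0 in can and 3 in comr, and among the 10 after it 3 and 2 did. At the mod(mdg4) interval, 2 windows scored 0.07 each in can and between -1.36 and -0.96 in comr. At the Release 5 interval listed for aus, 44.2 kb before the cluster, 3 windows averaged -0.19 in can and -0.33 in comr. On the other side the mark declined over about 3 bins, from 0.91 and 0.71 through 0.25 and 0.15 to 0.19 ± 0.16 in can and 0.07 ± 0.12 in comr in the first bin past the cluster. The next bin was below 0 in both, at -0.24 and -0.20.

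The cluster scored higher in comr than in can, while its flanks scored lower in comr. The difference, comr minus can, was 0.16 ± 0.04 over the cluster (SE over 210 windows, and 0.04 also over 21 bins). Over all windows it averages 0 by construction, since both profiles hold the same set of values, and over the rest of 3R it was 0.00. Over the 189 flanking windows the difference was -0.14 ± 0.04. The step from the flanks up to the cluster was therefore 0.46 in can and 0.75 in comr. In the cluster 130 of 210 windows (61.9%) were higher in comr, against 50.1% on the rest of 3R. Large differences, of at least 0.603 (1 SD of the difference over the rest of 3R), favoured comr in 37 cluster windows (17.6%) against 15% of windows elsewhere on 3R. They favoured can in 15 cluster windows (7.14%) against 14.7%. The cluster thus had fewer windows strongly higher in can, and nearly the usual share strongly higher in comr. Without separate replicates, no comparison of this difference with the spread between libraries was possible.

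**Figure D2:**
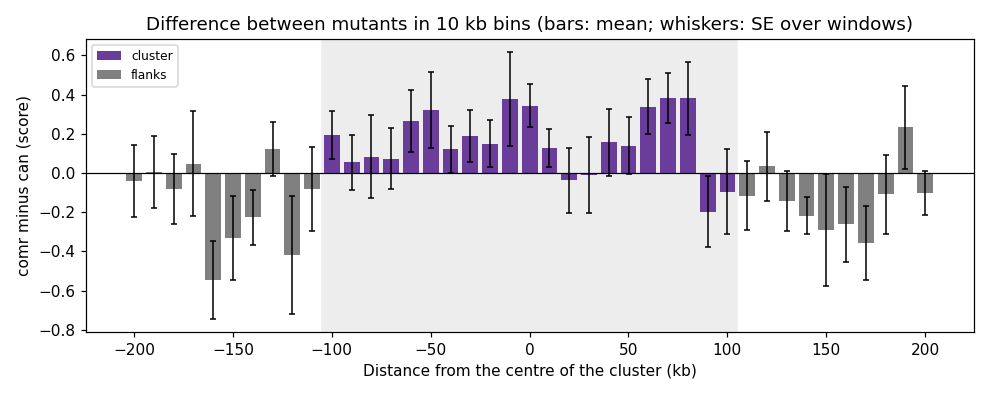
Difference in score, comr minus can, in 10 kb bins (bars, with SE over windows as whiskers) against the distance in kb from the centre of the cluster, with cluster bins in purple on a shaded ground and flanking bins in grey. Of the 21 cluster bins 17 are above 0, and of the 20 flanking bins 5 are.

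The difference was above 0 in 17 of the 21 bins and ranged from -0.20 to 0.38. The share of bins above 0 on the rest of 3R was not counted, and the difference averaged 0.003 there. The SD of the difference over the cluster bins was 0.16, against 0.23 over 2546 bins on the rest of 3R. The standard errors of single bins ran from 0.10 to 0.24, so the order of the bins is loose. The difference exceeded 2 of its standard errors in 4 bins, all with higher scores in comr. How many bins on the rest of 3R did so was not counted. The largest came on the slou side and near the middle. In the bin from 17360050 to 17370049, can had 0.14 ± 0.11 and comr 0.53 ± 0.12, and the difference was 0.38 ± 0.13 with 9 of 10 windows higher in comr. In the bin from 17370050 to 17380049, can had 0.30 ± 0.16 and comr 0.68 ± 0.13, and the difference was 0.38 ± 0.19. The bin from 17280050 to 17290049 differed by 0.38 ± 0.24, less than 2 standard errors. The remaining bins to pass that mark began at 17350050 (0.34 ± 0.14) and 17290050 (0.34 ± 0.11, with 9 of 10 windows higher in comr). Between 17350050 and 17370049 the can profile sank to 0.12 and 0.14, close to the 3R average, while comr stayed at 0.45 and 0.53.

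In the other direction 4 bins were higher in can, none by 2 standard errors. The largest was the bin from 17380050 to 17390049, at -0.20 ± 0.18, which holds the single highest can window. The last bin followed, at -0.10 ± 0.22, and then the dip, at -0.04 ± 0.17. The bin with the highest mean of both profiles, from 17270050, differed by 0.15 ± 0.12. Despite these local differences, the profiles rose and fell together. Across the 210 windows they correlated at r = 0.47 (Spearman's rho = 0.42), and across the 21 bins at 0.73 (rho = 0.70). The same values on the rest of 3R were 0.33 at 1 kb and 0.65 at 10 kb. Windows of 1 profile share their libraries and are not replicates, so these are descriptions.

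Laid end to end along 3R from the cluster, 133 stretches of its length could be compared. The cluster had the highest mean in both mutants, with 0.42 in can against at most 0.38 in the others, and 0.58 in comr against at most 0.52. It also had the largest share of enriched windows in each. Laying the stretches from the edges of the cluster favours it, since other marked regions are then divided at arbitrary places. With stretches moved in steps of 10 kb, none of 2738 placements exceeded the cluster in can, where the highest reached 0.41, from 27140050 to 27350049. In comr 7 placements did, the highest at 0.64 from 2650050 to 2860049. The next 4 stretches after the cluster by the mean of both profiles started at 2490050, 2700050, 6270050 and 26430050, with 0.38, 0.31, 0.29 and 0.30 in can and 0.48, 0.52, 0.50 and 0.40 in comr.

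The excess of comr over can was shared by some strongly marked stretches of 3R and not by others. By size of difference the cluster ranked 5th of 133, behind the stretch from 2700050 (0.22) and that from 6270050 (0.21) among others. Of the 10 other stretches with the highest can scores, 6 were higher in comr and 4 in can. Those 4 adjoin each other, from 26850050 to 27690049, near the far end of 3R. They included the stretches from 27060050, with 0.34 in can and 0.26 in comr, and from 27480050, with 0.30 and 0.03. Ranking by can alone favours stretches higher in can. By the mean of both profiles, the 4 stretches next after the cluster, named above, were all higher in comr. Stretch means varied more in comr than in can, the SD over the 132 other stretches being 0.19 against 0.14, and a line of comr on can through them had a slope of 1.18. At the can score of the cluster that line gives 0.49 in comr, and the cluster stood 0.09 above it, within the residual SD of 0.09 and 23rd of 133 by that measure. In units of each profile's own SD over stretches, the cluster was 2.84 above the mean in can and 2.95 in comr. On that scale the mutants differed by 0.10.

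**Figure D3:**
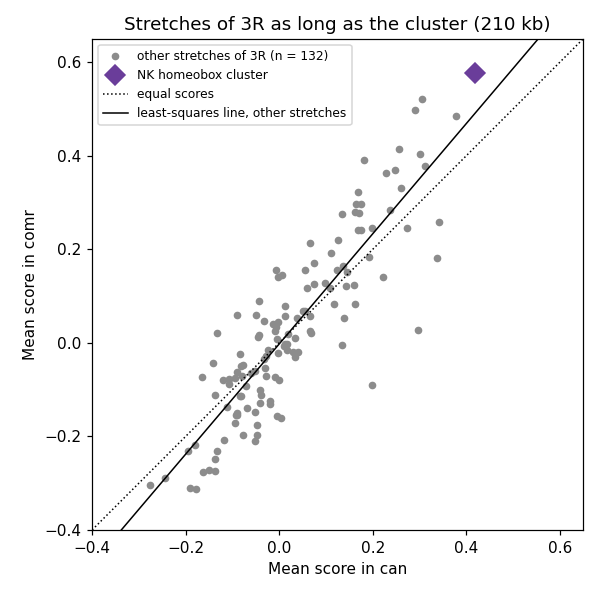
Mean score in comr against mean score in can for 133 stretches of 3R as long as the cluster, with the cluster as a purple diamond, the other 132 in grey, equal scores dotted and the least-squares line through the others solid. The cluster lies at the upper right end, at 0.42 and 0.58, near the line.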

How the data were processed

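H3K27me3 ChIP and input libraries had been made in 2 biological replicates of can and of comr mutant testes. The authors deposited 1 score per position and genotype, which per the file headers is H3K27me3 divided by input in 1000 bp bins followed by a step named QN. Coordinates are those of dm3, the build in the submitters' processing notes. How reads were aligned and filtered and how replicates were merged is not stated in the labels or headers, and depth is unknown.

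Rows are 100 bp apart and overlap, so only rows 500 bp past each full kb were used, each as a 1 kb window centred on its row. Means and SE were taken over windows and over 10 kb bins. With 1 profile per genotype there was no test between replicates. Domains joined enriched windows over gaps of at most 3 kb and were at least 5 kb long. Their calling was checked on simulated independent windows, where recovery was required only at a rise larger than that of the cluster. The check therefore does not show how well domains of the cluster's height are found. Stretches of 3R needed at least 50% of their windows. The bins and windows named were the highest, the lowest and those with the largest differences, by a fixed rule, and all 6 genes were named. Members, lists and rules were chosen with earlier results of these data known. Software was Python 3.11.15, numpy 2.4.6, scipy 1.17.1 and pandas 2.3.3.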

Additional observations from a re-analysis of the deposited data

How the results depend on the processing

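No paired analysis was possible because 1 merged profile stands for both replicates of a genotype, which also meant that leaving out a replicate could not be tried. Of 53 recomputed values, 28 were counted as unchanged, 25 as moved and none as reversed. With bounds moved out by 20 kb on each side, the means fell to 0.357 in can and 0.468 in comr, the difference to 0.111, and the excess over 3R to 0.329 and 0.437. With bounds drawn in by 20 kb, the comr mean was 0.631, the difference 0.200 and the comr excess 0.599. Scaling each profile by its 3R window SD gave a difference of 0.273 in units of that SD. Settings added after the data were seen gave 0.103 in units of the SD over stretches and a score of 0.0877 from the line. They also gave rank 8 in comr with stretches moved in 10 kb steps. The scaled differences were counted as moved although their units are not those of the score, so their sizes cannot be compared with it. Enriched shares were 13.8% in can and 21.9% in comr at the top 5%, and 49.0% and 62.9% at the top 20%. Such shares change with the cut itself, and those on the rest of 3R at these cuts were not computed. The longest domain depended most on settings. At the top 5% it was 8 kb (can) and 23 kb (comr), against 6 and 7 kb with no gaps joined, 6 and 17 kb with gaps of 1 kb, and 103 kb in can against 94 kb in comr at the top 20%, where can had the longer one. The correlation was 0.733 in 5 kb bins and 0.727 in 10 kb bins. Over the 10 sets of rows, the difference ranged from 0.149 to 0.169. Unknown depth limits every score.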
